A study of Homo sapiens with 6 samples.

Results

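Cholesterol and fatty acid synthesis was followed through 32 genes, taken by name from the deposited table of 58735 genes, in RNA sequencing of A549 cells. A549 is an established human lung adenocarcinoma line. The libraries were 3 titled Vector, with genotype and treatment given as WT, and 3 titled OE_GPX3, with both given as OE, for overexpression of the secreted glutathione peroxidase GPX3. The labels give no time point, no vector and no clone, and they do not say whether replicates were separate cultures. The p-values therefore describe only the scatter among these libraries, and that scatter may be technical. All 32 genes had enough counts to be tested, among 14458 tested genes.

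Cholesterol is built from acetyl-CoA through mevalonate, farnesyl diphosphate, squalene and lanosterol, and fatty acids are built from the same acetyl-CoA by carboxylation, repeated condensation, desaturation and elongation. Both routes are driven by the transcription factors of the SREBP family, which are made as precursors in the endoplasmic reticulum membrane, escorted to the Golgi by SCAP when sterols are low, and held back by INSIG proteins when sterols are plentiful. Lung epithelial cells use these lipids for membranes and surfactant, and lipid synthesis is often raised in tumour cells.

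Total counts ranged from 15831693 to 18751815 per library. GPX3 itself, the check of the overexpression label, had 638, 658 and 648 counts in Vector replicates 1 to 3 and 23372, 17470 and 20984 in OE_GPX3 replicates 1 to 3, a log2 fold change of 5.08 (SE 0.13, edgeR adjusted p = 2.0e-27). All 10 epithelial and A549 markers examined were tested genes, and their summed level was 34804 to 37461 CPM (TMM-scaled counts relative to library size, with a sum near 1e6) in Vector and 39193 to 47086 in OE_GPX3. Of 24 markers of fibroblasts, endothelial cells, leukocytes, hepatocytes and adipocytes, 3 (COL1A1, CD14 and PLIN1) had enough counts to be tested, and KDR and ADIPOQ had 0 counts in every library. The summed level of the 7 fibroblast markers was 4.63 to 4.78 CPM in Vector and 3.48 to 7.18 in OE_GPX3, and that of the 5 endothelial markers was 0.339 to 0.978 CPM in Vector and 0.617 to 0.973 in OE_GPX3. The 6 leukocyte markers summed to 12.1 to 16.6 CPM in Vector and 16.2 to 17.1 in OE_GPX3, with CD14 the tested one. The 6 hepatocyte and adipocyte markers summed to 3.16 to 4.52 and 4.66 to 8.13 CPM. For the epithelial sum and the hepatocyte and adipocyte sum, all OE_GPX3 libraries lay above all Vector libraries. Single genes carried much of both differences. Mean CPM in Vector and OE_GPX3 was 13330 and 17070 for KRT8, and 7907 and 9885 for KRT18. Of the epithelial markers, ALDH1A1 (5199 and 5109) and NQO1 (1211 and 1185) were lower in OE_GPX3. PLIN1, with means of 3.57 and 5.85 CPM, made up most of the hepatocyte and adipocyte sum, where ALB and FABP4 were lower in OE_GPX3. The part of any of these markers in the results below was not tested.

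All 32 members were expressed in the Vector cells, over a wide span of levels. Levels are given as the authors' FPKM, reads scaled by gene length and by library, which is the scale on which genes may be compared with each other. ACLY, the enzyme that makes cytosolic acetyl-CoA from citrate, was the highest member at 92.9 ± 3.05 FPKM over the Vector libraries and 99.7 ± 3.03 over the OE_GPX3 libraries (mean ± SD, n = 3 in both), at the percentile 97 of the tested genes. It was followed by the stearoyl-CoA desaturase SCD at 53.6 ± 8.26 FPKM over the Vector libraries and 55.9 ± 12.3 over the OE_GPX3 libraries (mean ± SD, n = 3 in both), whose range over the 3 Vector libraries did not meet that of ACLY. The next members in order, the squalene synthase FDFT1, PMVK, FASN and EBP, lay between 36.4 and 39.9 FPKM in Vector and overlapped one another across replicates. At the low end STARD4, a carrier of cholesterol between membranes, stood at 0.666 ± 0.112 FPKM over the Vector libraries and 0.665 ± 0.0805 over the OE_GPX3 libraries (mean ± SD, n = 3 in both), below the elongase ELOVL6 at 1.33 ± 0.216 FPKM over the Vector libraries and 1.49 ± 0.0187 over the OE_GPX3 libraries (mean ± SD, n = 3 in both). The 32 members together took 0.356%, 0.316% and 0.346% of counts in Vector replicates 1 to 3 and 0.373%, 0.361% and 0.327% in OE_GPX3 replicates 1 to 3, so the groups overlapped.

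**Figure D1:**
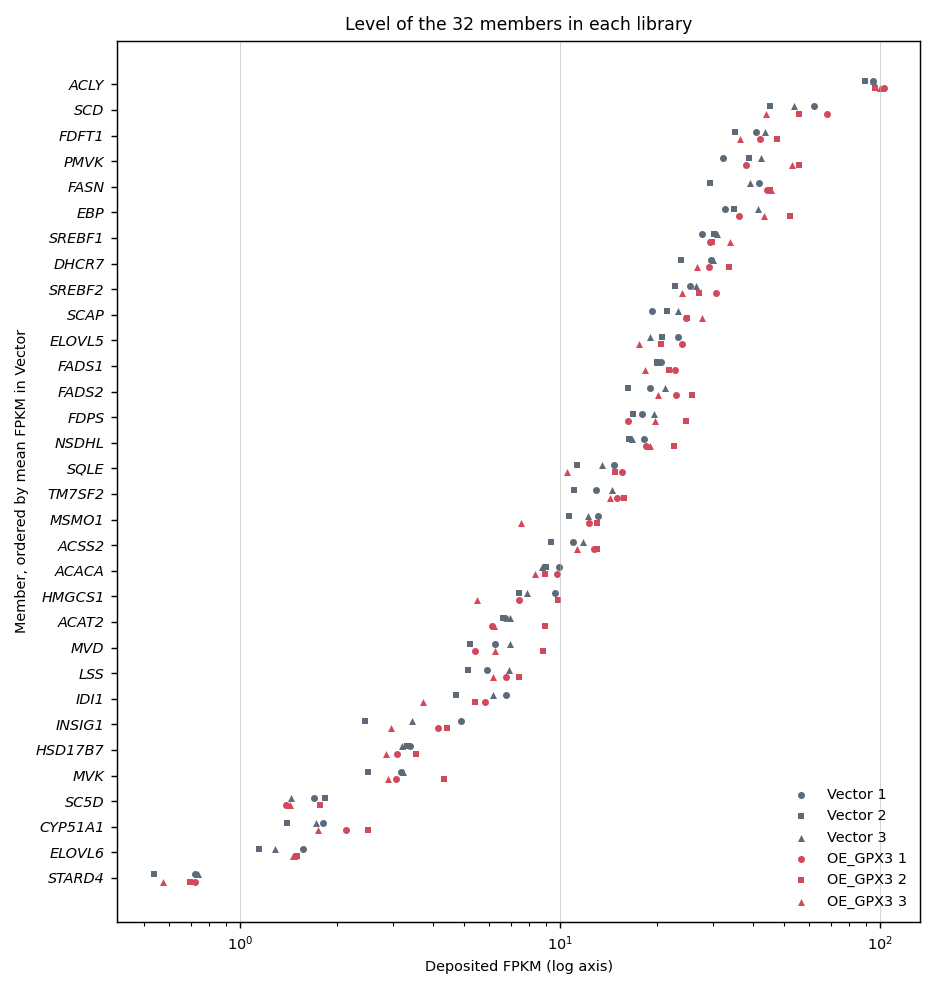
Deposited FPKM (log axis) of the 32 members, ordered by their mean in Vector, with 1 point per library (grey, Vector; red, OE_GPX3; circle, square and triangle for replicates 1, 2 and 3). ACLY lies near 100 FPKM and STARD4 below 1 FPKM, and for 28 of the 32 genes the red and grey points overlap.

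None of the 32 genes differed between OE_GPX3 and Vector past the threshold, an adjusted p under 0.05 over all tested genes. The smallest adjusted p among them was 0.206, for PMVK in edgeR's quasi-likelihood test, and DESeq2 and limma also called 0 members. DESeq2 gave no adjusted p for CYP51A1 and STARD4, and limma left STARD4 out for its low level. Over all tested genes edgeR called 38, which is 0.263%, with 14 higher in OE_GPX3 (0.0968%) and 24 lower (0.166%). In these bulk libraries, fewer cells expressing a gene and less RNA per cell cannot be told apart. At an unadjusted p under 0.05, edgeR had 5 members, all higher in OE_GPX3, namely PMVK, FASN, FADS2, SCAP and EBP. That is 15.6% of the members beside 14.6% of all tested genes, which is near the background. By direction, 6.83% of tested genes were higher and 7.76% lower at that level. The groups did not overlap for 4 members (FASN, SCAP, NSDHL and ACLY, all higher in OE_GPX3), or 12.5%, beside 18.5% of tested genes (8.62% higher and 9.9% lower).

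The log2 fold change was above 0 for 24 of 32 members (75%), beside 47.4% of all tested genes, and its median was 0.09 beside -0.02 over all tested genes. With libraries scaled by total counts alone, 19 of 32 (beside 37.6% of all tested genes) were above 0, and the median was 0.03 for the members and -0.08 for all tested genes, so both moved down by about the same amount. The sign of the log2 fold change was the same in every alternative tried for 15 of the 32 members, and it changed in at least 1 alternative for the other 17, whose values were at most 0.142 in size. The largest values were 0.36 for CYP51A1 and 0.35 for PMVK, and the lowest was -0.25 for IDI1. The intervals rest on the scatter among these libraries, which may be technical, so they bound only differences between these libraries. All 32 separate 95% confidence intervals lay within a 2-fold change in either direction, and 30 lay within 1.5-fold. The exceptions were PMVK and CYP51A1. For every one of the 32 members the largest fold between 2 libraries of the same group was above the fold between the group means. The same held for 89.9% of the tested genes with counts in all libraries. The median of that within-group fold was 1.37 for the members, and the median fold between groups was 1.1.

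**Figure D2:**
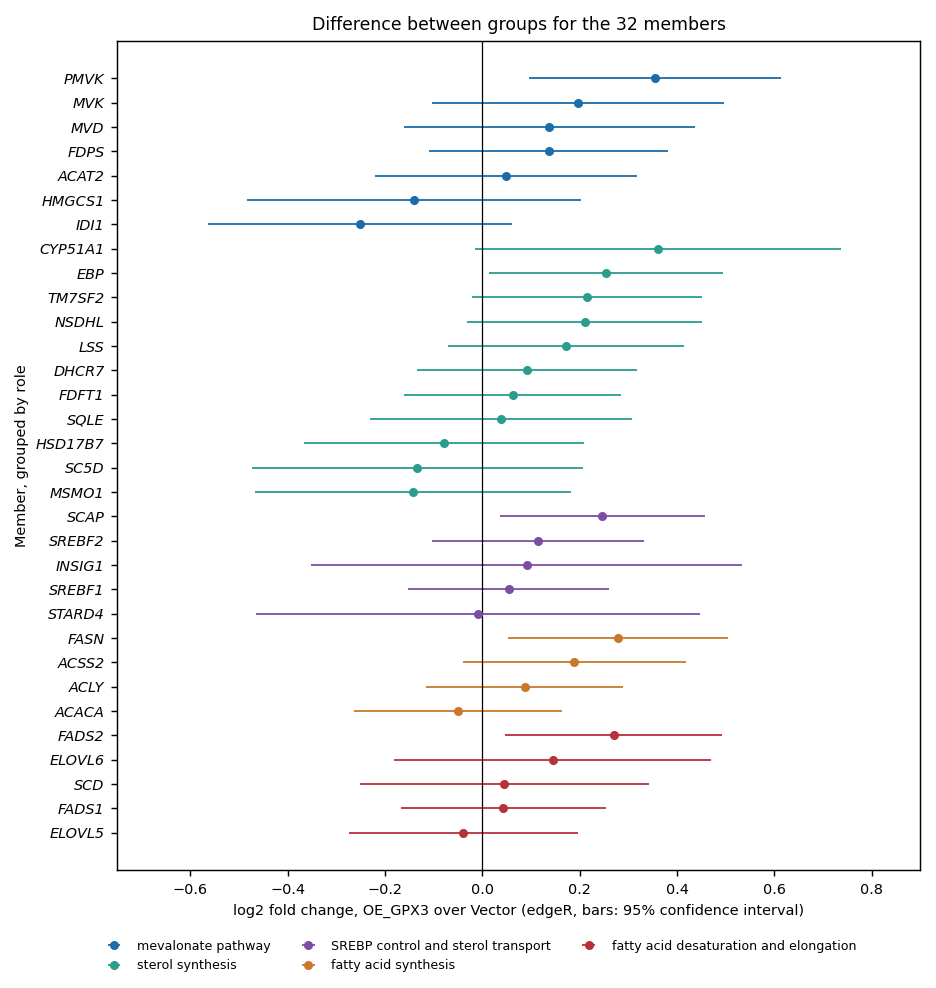
Log2 fold change of each member, OE_GPX3 over Vector, with its 95% confidence interval from edgeR (n = 3 libraries per group), coloured by role. The intervals of PMVK, EBP, SCAP, FASN and FADS2 lie above 0 before adjustment, and none lies below 0.

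The first steps from acetyl-CoA to farnesyl diphosphate held 7 members, of which 5 had a log2 fold change above 0 and 0 were called. Gene positions are on hg38. PMVK, the phosphomevalonate kinase (ENSG00000163344, chr1:154924734-154936991, minus strand), was at 32.2, 39.0 and 42.4 FPKM in Vector replicates 1 to 3 and 38.1, 55.8 and 53.0 in OE_GPX3 replicates 1 to 3. The values of OE_GPX3 replicates 2 and 3 were above all Vector values, while replicate 1 lay below Vector replicates 2 and 3, so the groups overlapped. Its log2 fold change was 0.35 (SE 0.13, edgeR adjusted p = 0.206). Of the other kinases and the decarboxylase, MVK stood at 2.97 ± 0.400 FPKM over the Vector libraries and 3.43 ± 0.784 over the OE_GPX3 libraries (mean ± SD, n = 3 in both) and MVD, mevalonate diphosphate decarboxylase, at 6.14 ± 0.876 FPKM over the Vector libraries and 6.82 ± 1.76 over the OE_GPX3 libraries (mean ± SD, n = 3 in both), with log2 fold changes of 0.20 and 0.14. Farnesyl diphosphate synthase, FDPS, had 0.14 and the acetoacetyl-CoA thiolase ACAT2 0.05.

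The remaining 2 genes of these first steps had values below 0. HMGCS1, which makes HMG-CoA, was at 9.59, 7.42 and 7.86 FPKM in Vector and 7.45, 9.82 and 5.50 in OE_GPX3, and the isomerase IDI1 at 6.74, 4.74 and 6.15 FPKM in Vector and 5.80, 5.40 and 3.72 in OE_GPX3. For both, OE_GPX3 replicate 3 was the lowest of all 6 libraries, and the groups overlapped. Their log2 fold changes were -0.14 (95% interval -0.48 to 0.20) and -0.25 (-0.56 to 0.06).

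The 11 members from squalene to cholesterol had 8 values above 0, 3 below and 0 called. EBP, the sterol isomerase (ENSG00000147155, chrX:48521158-48528716, plus strand), was at 32.6, 35.0 and 41.5 FPKM in Vector replicates 1 to 3 and 36.1, 52.1 and 43.3 in OE_GPX3 replicates 1 to 3, and its highest and lowest libraries were OE_GPX3 replicate 2 and Vector replicate 1. Its log2 fold change was 0.25 (SE 0.12, edgeR adjusted p = 0.32). NSDHL, a dehydrogenase of sterol demethylation (ENSG00000147383, chrX:152830967-152869729, plus strand), was at 18.3, 16.5 and 16.7 FPKM in Vector replicates 1 to 3 and 18.6, 22.6 and 19.0 in OE_GPX3 replicates 1 to 3. All OE_GPX3 values of NSDHL lay above all Vector values, though OE_GPX3 replicate 1 and Vector replicate 1 were close, and the log2 fold change was 0.21 (SE 0.12, edgeR adjusted p = 0.409).

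TM7SF2, a sterol reductase (ENSG00000149809, chr11:65111845-65116384, plus strand), was at 13.0, 11.1 and 14.5 FPKM in Vector replicates 1 to 3 and 15.0, 15.8 and 14.3 in OE_GPX3 replicates 1 to 3. Vector replicate 3 lay above OE_GPX3 replicate 3, so the groups overlapped, and the log2 fold change was 0.21 (SE 0.12, edgeR adjusted p = 0.387). CYP51A1, the lanosterol demethylase (ENSG00000001630, chr7:92112151-92134803, minus strand), was at 1.81, 1.40 and 1.73 FPKM in Vector replicates 1 to 3 and 2.14, 2.51 and 1.75 in OE_GPX3 replicates 1 to 3, with a log2 fold change of 0.36 (SE 0.19, edgeR adjusted p = 0.362). It had only 96 to 152 counts per library, and it shares 2844 exonic bases on its own strand with the gene model AC000120.2, which was listed at 0 counts in all 6 libraries. The level of CYP51A1 is therefore uncertain, with the handling of shared bases not given in the sources used here.

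Among the other sterol enzymes the values were smaller. The oxidosqualene cyclase LSS had a log2 fold change of 0.17, the last reductase DHCR7 0.09, FDFT1 0.06 and the squalene epoxidase SQLE 0.04. The sterol ketoreductase HSD17B7 had -0.08, the desaturase SC5D -0.13 and the methyl sterol oxidase MSMO1 -0.14. MSMO1 was at 13.1, 10.7 and 12.2 FPKM in Vector and 12.3, 13.0 and 7.55 in OE_GPX3, so that OE_GPX3 replicate 3 was the lowest library. OE_GPX3 replicate 3 was also the lowest for SQLE, with 10.5 FPKM there and 15.6 in OE_GPX3 replicate 1, the highest.

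The control genes of the pathway gave no call either. SCAP, the escort of the SREBP precursors (ENSG00000114650, chr3:47413694-47477126, minus strand), was at 19.4, 21.6 and 23.4 FPKM in Vector replicates 1 to 3 and 24.6, 25.0 and 27.6 in OE_GPX3 replicates 1 to 3. All OE_GPX3 values lay above all Vector values, and the log2 fold change was 0.25 (SE 0.10, edgeR adjusted p = 0.277). SREBF2, which encodes the family member that mainly drives sterol genes (ENSG00000198911, chr22:41833079-41907308, plus strand), was at 25.4, 22.8 and 26.6 FPKM in Vector replicates 1 to 3 and 30.7, 27.1 and 24.0 in OE_GPX3 replicates 1 to 3. Its highest and lowest libraries were OE_GPX3 replicate 1 and Vector replicate 2, the groups overlapped, and the log2 fold change was 0.11 (SE 0.11, edgeR adjusted p = 0.63). SREBF1, whose products mainly drive fatty acid genes (ENSG00000072310, chr17:17810399-17837002, minus strand), was at 27.6, 30.1 and 31.0 FPKM in Vector replicates 1 to 3 and 29.4, 29.7 and 34.0 in OE_GPX3 replicates 1 to 3, with a log2 fold change of 0.05 (SE 0.10, edgeR adjusted p = 0.83). That of SREBF1 turned to -0.01 when libraries were scaled by total counts alone.

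INSIG1, which retains the SCAP and SREBP complex and is itself a sterol-responsive target (ENSG00000186480, chr7:155297776-155310235, plus strand), varied widely within a group. It was at 4.88, 2.45 and 3.45 FPKM in Vector replicates 1 to 3 and 4.16, 4.44 and 2.96 in OE_GPX3 replicates 1 to 3, so that Vector replicates 1 and 2 were the highest and the lowest of all 6 libraries and differed 2.0-fold in CPM. The log2 fold change was 0.09 (SE 0.21, edgeR adjusted p = 0.866), with a 95% interval of -0.35 to 0.53, and it was -0.13 without Vector replicate 2 and -0.01 without OE_GPX3 replicate 2. STARD4 had a log2 fold change of -0.01 at 50 to 74 counts per library.

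Sequence just upstream of the start was read because genes of these routes are known to share SREBP, NF-Y and Sp1 as regulators. RefSeq promoters (GRCh38.p14) were matched by symbol for 28 of the 32 members; FASN, FDFT1, ACAT2 and SQLE had no entry. In the 250 bases before the start, TCACCCCAC, letters of the sterol regulatory element, was found on either strand in 1 of the 28 members, SREBF2 (3.57%), beside 0.461% of 10415 tested genes with an entry. CCAAT, the letters bound by the factor NF-Y, was found in 21 of 28 members (75%) beside 41.1% of tested genes. GGGCGG, an Sp1 box, was found in 26 of 28 (92.9%) beside 74.8%, and the E-box CACGTG in 4 of 28 (14.3%) beside 11.3%. Genes with several starts counted as holding a motif when any window held it. A match of letters is a description and not a site.

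The stretches below are from members named above with all their values, and show how these letters lie in regulators and enzymes; all but SREBF2 were chosen after the matches were seen. Capitals mark TCACCCCAC and CCAAT or its reverse complement ATTGG, and each stretch stops before the 5′ end of the deposited gene. SREBF2 (chr22:41832962-41833078) holds the sterol element, whose first base is at -133 from the RefSeq start, with a reversed CCAAT at -106. SREBF1 (chr17:17837003-17837126, minus strand) holds neither within its 250 bases. INSIG1 (chr7:155297698-155297775) and TM7SF2 (chr11:65111742-65111844) hold 1 reversed CCAAT each in these stretches, at -170 and -74. NSDHL (chrX:152830825-152830966) holds 4 in the stretch, 2 of which overlap in the run beginning at -113, and another CCAAT at -84 lies beyond it.
SREBF2: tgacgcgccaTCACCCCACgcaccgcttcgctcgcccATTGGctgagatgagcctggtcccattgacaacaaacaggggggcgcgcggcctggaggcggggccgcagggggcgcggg
SREBF1: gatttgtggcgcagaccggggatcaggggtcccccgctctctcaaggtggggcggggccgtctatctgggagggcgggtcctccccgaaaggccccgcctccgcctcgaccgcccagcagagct
INSIG1: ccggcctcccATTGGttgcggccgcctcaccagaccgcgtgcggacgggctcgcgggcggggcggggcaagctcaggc
TM7SF2: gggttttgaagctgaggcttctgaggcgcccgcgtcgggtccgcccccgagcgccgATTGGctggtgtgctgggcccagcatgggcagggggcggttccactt
NSDHL: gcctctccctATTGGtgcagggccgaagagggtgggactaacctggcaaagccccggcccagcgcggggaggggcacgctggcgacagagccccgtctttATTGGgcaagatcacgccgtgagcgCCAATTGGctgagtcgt

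Of the 4 members that make fatty acids from acetyl-CoA, 3 had values above 0 and 0 were called. FASN, the fatty acid synthase (ENSG00000169710, chr17:82078333-82098332, minus strand), was at 41.8, 29.3 and 39.1 FPKM in Vector replicates 1 to 3 and 44.2, 45.3 and 45.7 in OE_GPX3 replicates 1 to 3. The 3 OE_GPX3 libraries lay close together and above all Vector libraries, and Vector replicate 2 was far the lowest. The log2 fold change was 0.28 (SE 0.11, edgeR adjusted p = 0.252), and without Vector replicate 2 it was 0.14. ACLY was at 94.6, 89.3 and 94.6 FPKM in Vector and 103, 96.6 and 100 in OE_GPX3, again without overlap, with a log2 fold change of 0.09 and a 95% interval of -0.12 to 0.29. The acetyl-CoA synthetase ACSS2 had 0.19, and ACACA, the carboxylase that makes malonyl-CoA, had -0.05 at 9.24 ± 0.594 FPKM over the Vector libraries and 9.02 ± 0.732 over the OE_GPX3 libraries (mean ± SD, n = 3 in both).

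The 5 desaturases and elongases had 4 values above 0 and 0 called. FADS2, the first desaturase of polyunsaturated fatty acid synthesis (ENSG00000134824, chr11:61792980-61867354, plus strand), was at 19.1, 16.3 and 21.2 FPKM in Vector replicates 1 to 3 and 23.0, 25.7 and 20.2 in OE_GPX3 replicates 1 to 3. OE_GPX3 replicate 3 lay below Vector replicate 3, so the groups overlapped, and the log2 fold change was 0.27 (SE 0.11, edgeR adjusted p = 0.262). Its neighbour FADS1, the next desaturase, shares 490 exonic bases with it on the other strand and had 0.04. SCD was at 61.9, 45.3 and 53.8 FPKM in Vector and 68.3, 55.6 and 43.8 in OE_GPX3, with the OE_GPX3 range enclosing that of Vector and a log2 fold change of 0.05 (95% interval -0.25 to 0.34). ELOVL6 and ELOVL5, elongases of saturated and polyunsaturated chains, had 0.14 and -0.04.

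Single libraries stood apart for many members at once. Among the Vector libraries, replicate 2 was the lowest for 23 of the 32 members, where it was the lowest for 30.0% of tested genes. Among the OE_GPX3 libraries, replicate 3 was the lowest for 21 members and replicate 2 the highest for 19, beside 33.2% and 32.3% of tested genes. The mean log2 level of the members, relative to the mean of 6 libraries, was 0.04, -0.18 and 0.01 in Vector replicates 1 to 3 and 0.05, 0.19 and -0.11 in OE_GPX3 replicates 1 to 3. The groups thus overlapped, with Vector replicate 2 the lowest and OE_GPX3 replicate 2 the highest. Without Vector replicate 2 the median log2 fold change of the members was 0.04, without OE_GPX3 replicate 2 it was 0.02 with 18 of 32 above 0, and without OE_GPX3 replicate 3 it was 0.19 with 29 of 32 above 0. The shares of all tested genes above 0 without these libraries were 48%, 50% and 51.1%. Without OE_GPX3 replicate 1 edgeR called PMVK at 0.50 (adjusted p = 0.00294) and EBP at 0.37 (adjusted p = 0.0257), which is 2 of 32 members (6.25%) beside 657 of all tested genes (4.47%).

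**Figure D3:**
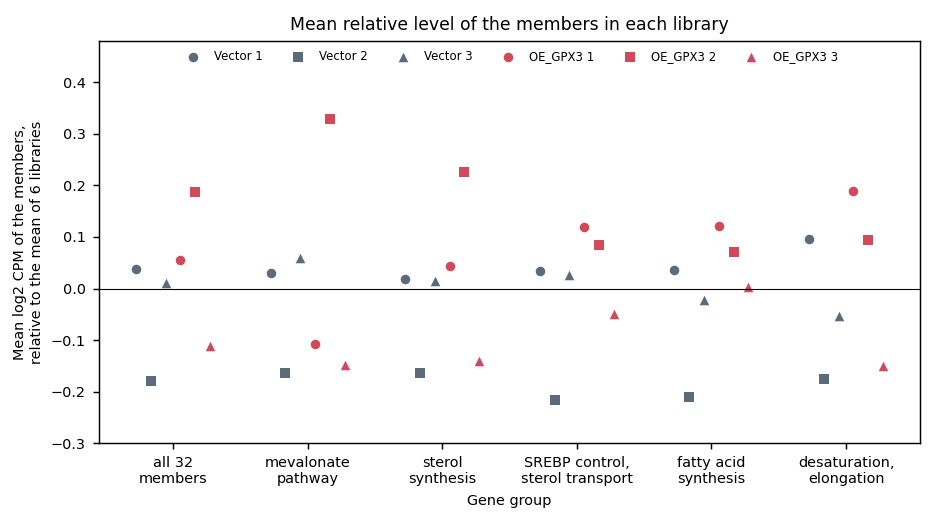
Mean log2 CPM of the members in each library, relative to the mean of the 6 libraries, for all 32 and for each role (grey, Vector; red, OE_GPX3; symbols mark replicates). Vector replicate 2 is at -0.18 and OE_GPX3 replicate 2 at 0.19 for all 32, and the other 4 libraries lie between them.

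The same values by role are given as a description, with no test between roles. The mevalonate genes were at 0.33 in OE_GPX3 replicate 2 and at -0.11 and -0.15 in replicates 1 and 3. The desaturases and elongases were highest in OE_GPX3 replicate 1 at 0.19, and the fatty acid synthesis genes lay at 0.12, 0.07 and 0.00 in the OE_GPX3 libraries and at 0.04, -0.21 and -0.02 in Vector. A set of 13 stress genes, named for the ATF4 response, held DDIT3, TRIB3, ATF3, ATF4, ASNS, CHAC1, SESN2, DDIT4, PSAT1, PHGDH, VLDLR, CEBPB and XBP1. On the same scale the set was at -0.17, 0.60 and 0.32 in Vector and -0.50, -0.24 and -0.01 in OE_GPX3. Vector replicate 2, the lowest for the mean of the 32 members, was thus the highest for this set. CEBPB and XBP1 had log2 fold changes above 0 (0.18 and 0.04), and the other 11 genes were below 0. The part of this set in the result was not tested.

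Fold changes in this comparison moved with the GC content of the transcripts, for members as for other genes. Over tested genes the median log2 fold change was -0.19 in transcripts of up to 40% GC and 0.16 in those above 60%. The 3 members of up to 40% GC (MSMO1, SC5D and STARD4) had a median of -0.13, the 6 between 40% and 45% one of -0.06, and the 5 above 60% (FASN, SCAP, SREBF1, MVD and TM7SF2) one of 0.21. In transcripts between 50% and 55% GC the median was 0.14 for 6 members and 0.04 for all tested genes. After a correction for GC content, the median of the members was 0.09 beside 0.01 for all tested genes, and 27 of 32 were above 0, with 0 called. Of all tested genes 53.5% were then above 0. With that correction TM7SF2 stood at 0.06, FASN at 0.11, SCAP at 0.11, SREBF2 at 0.03, FADS2 at 0.17 and PMVK at 0.24. EBP stood at 0.22, NSDHL at 0.23, INSIG1 at 0.18 and CYP51A1 at 0.51. The sign turned to below 0 for SREBF1 (-0.09), MVD (-0.0095) and DHCR7 (-0.0028). It turned to above 0 for HMGCS1 (0.03), MSMO1 (0.04), SC5D (0.05), HSD17B7 (0.08), STARD4 (0.19) and ELOVL5 (0.12).

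**Figure D4:**
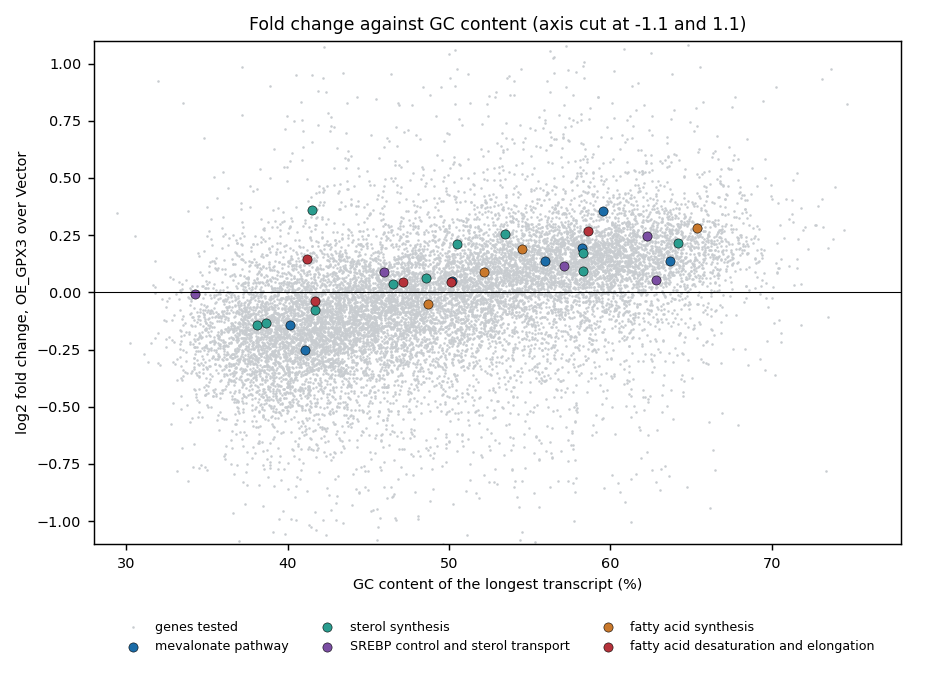
Log2 fold change, OE_GPX3 over Vector, against the GC content of the longest transcript, for tested genes (grey, those outside the axis are not drawn) and the 32 members (coloured by role). The median of tested genes goes from -0.19 at up to 40% GC to 0.16 above 60%, and the 5 members above 60% have a median of 0.21.

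Lipid genes around these routes were taken from 6 further lists, of which 80 of 81 genes were tested and 0 were called by edgeR, with 11 at an unadjusted p under 0.05 (13.8%, beside 14.6% of all tested genes). Their log2 fold changes were split evenly, with 40 above 0 and 40 below (50% above, beside 47.4% of all tested genes). The median GC content was 45.8% for these genes, 50.3% for the members and 49% for all tested genes. In the sterol uptake, storage and export list 6 of 14 were above 0. The cholesterol exporter ABCG1 was at 6.55, 6.94 and 9.41 CPM in Vector and 4.99, 3.90 and 6.49 in OE_GPX3, and ABCA1, which loads cholesterol onto apolipoproteins, at 3.27, 3.55 and 2.81 CPM in Vector and 1.79, 1.71 and 2.79 in OE_GPX3. For both exporters all OE_GPX3 CPM values lay below all Vector values, but the nearest libraries were close. In the deposited FPKM the groups overlapped. There OE_GPX3 replicate 3 lay just above Vector replicate 1 for ABCG1 (1.065 and 1.052) and Vector replicate 3 for ABCA1 (0.2469 and 0.2463). The log2 fold changes were -0.58 (SE 0.20, edgeR adjusted p = 0.191) and -0.62 (SE 0.26, edgeR adjusted p = 0.277), at 29 to 69 counts per library for ABCA1. Over the 6 lists the groups did not overlap in CPM for 15 of 80 genes (18.8%), beside 18.5% of tested genes. SCARB1, a receptor for high-density lipoprotein, was at 289 ± 27.0 CPM over the Vector libraries and 339 ± 18.4 over the OE_GPX3 libraries (mean ± SD, n = 3 in both), with 0.23 (SE 0.10, edgeR adjusted p = 0.302).

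Genes that process SREBP or degrade pathway proteins had 2 of 9 values above 0 (22.2%, beside 47.4% of all tested genes). The median GC content of this list was 44.7%, and of tested genes between 40% and 45% GC 22.7% were above 0. Any part of GC content in this count was not tested. RNF139, a ubiquitin ligase of the endoplasmic reticulum, was at 39.6, 41.0 and 38.7 CPM in Vector and 33.9, 32.8 and 25.9 in OE_GPX3, without overlap, at -0.36 (SE 0.12, edgeR adjusted p = 0.174). PAQR3 and the site-2 protease MBTPS2 had -0.33 and -0.12. The list of other fatty acid and glycerolipid enzymes had 16 of 29 above 0. DGAT1, which makes triglyceride, was at 68.3, 73.1 and 86.4 CPM in Vector and 92.7, 92.4 and 109 in OE_GPX3, with 0.37 (SE 0.11, edgeR adjusted p = 0.135). It was followed by the citrate carrier SLC25A1 at 0.28 and the acyltransferase AGPAT2 at 0.27. Without OE_GPX3 replicate 1, edgeR called DGAT1 (0.40), SLC25A1 (0.33), AGPAT2 (0.33) and RNF139 (-0.44). These were 3 of 29 genes of the other fatty acid and glycerolipid list (10.3%) and 1 of 9 of the SREBP processing list (11.1%). Over the 6 lists they were 4 of 80 (5%), near the 4.47% of all tested genes called in that setting.

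Of 10 genes of the non-sterol isoprenoid branch 4 were above 0, with the farnesyltransferase subunit FNTB at 0.24, the geranylgeranyl diphosphate synthase GGPS1 at -0.30 and PDSS1 at 0.23. Of the other sterol enzymes, ERG28 and LBR had 0.12 and 0.01. Fatty acid oxidation, which runs against synthesis, had 9 of 15 above 0, with ACADVL and ACADS, acyl-CoA dehydrogenases, at 0.23 and 0.25 and the coactivator PPARGC1A at -0.25. The median of that list was 0.04, beside 0.09 for the members.

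Some members share exons with other counted genes. With strand handling not given in the sources used here, reads of such pairs may not have been separated. ACAT2 shares 397 exonic bases with TCP1, MVK 306 with MMAB and SREBF1 556 with RAI1, each on the other strand. These partners had log2 fold changes of -0.05, 0.11 and 0.09. Also on the other strand, ACAT2 shares 1458 bases with SOD2-OT1 and 1141 with a gene model named SOD2, both at 0 counts. HMGCS1, FDPS and IDI1 share 703, 693 and 643 bases there with AC114947.2, RUSC1-AS1 and IDI2-AS1, which held at most 1.82% of the member's counts. TM7SF2 and FADS2 share 16 and 49 bases on their own strand with VPS51 and FEN1, at 0.16 and 0.17. Annotated copies named after CYP51A1, FADS2, FDPS, HSD17B7 and SCD held at most 3.46% of the parent's counts, in HSD17B7P2.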

How the data were processed

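RNA of 6 A549 libraries was analysed, 3 per group, grouped by title. The authors deposited whole-number counts per gene, and the submitters' processing notes name hg38. Aligner, counter and strand setting are unknown (not given in the sources used here). In the labels' protocols a small RNA library is described, but protein-coding genes hold 97.5% of the 14458 tested genes' summed CPM. All 58735 genes of the table have the positions of GENCODE release 29. The authors' deposited FPKM match counts divided by length and by a library constant, which differs from the total count by -4.52% to 4.90%. That constant's origin was not worked out.

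From the counts, edgeR 4.0.16 (filterByExpr with minimum count 10 and total 15, TMM, robust quasi-likelihood test, two-sided) compared OE_GPX3 with Vector without a block, with Benjamini-Hochberg adjustment over 14458 genes at 0.05. Fold changes and intervals come from this fit. Alternatives used DESeq2 1.42.0, limma 3.58.1 on log2(FPKM + 1) and log2(FPKM + 0.1) for genes with a mean of at least 1 FPKM, other scalings and filters, the replicate number as a block, a loess correction for GC content, and each library left out. GC content was that of the longest GENCODE transcript. The fit was also run on simulated counts with the same dispersion for every gene. It called 70.1% of genes changed 1.5-fold and 100% of those changed 2-fold, with 9 false calls among 189. The simulation had no GC trend and no shifts of single libraries, so it does not show how the fit behaves on these data. Total counts per library, 15831693 to 18751815, limit the precision of low genes.

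The members and lists were chosen with earlier results of these data known. Members given library by library are the 8 with the smallest p and SREBF1, SREBF2, SCAP and INSIG1; others given so (HMGCS1, IDI1, MSMO1, ACLY, SCD) were chosen after their values were seen. Of each further list up to 3 genes with the smallest p are named. Some genes of the fixed lists are not reported here.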

Additional observations from a re-analysis of the deposited data

How the results depend on the processing

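The number of members called stayed at 0 under every alternative that kept all 6 libraries, and ranged from 0 to 2 with 1 library left out. The number of members whose groups did not overlap was 4, and it was 1 with total counts alone (3.12%, beside 19.2% of tested genes). It was 2 with upper-quartile scaling (6.25%, beside 18.8%) and 3 with a filter of a mean of at least 1 CPM (9.38%, beside 18.7%). With 1 library left out it was 5 to 11 (15.6% to 34.4%, beside 23.7% to 37.8%), where fewer libraries are compared. The median log2 fold change of the members was above 0 in all 17 alternatives, from 0.02 to 0.19 with 1 library left out. Over all genes edgeR called 38, against 68 with total counts alone, 129 with no filter on low counts and 4 with the GC correction. DESeq2 called 110, and limma called 10 on log2(FPKM + 1) and 11 on log2(FPKM + 0.1). With 1 library left out the count ranged from 1 to 657. With the replicate block it was 231, and 61 with the replicate block and GC correction together, with 0 members called in either. DGAT1 was the only gene of the 6 further lists called with the replicate block (0.37, edgeR adjusted p = 0.0301). That is 1 of 80 (1.25%), beside 1.6% of all tested genes. The labels do not say that replicate numbers pair libraries, so the main fit had no block. Deviations of same-numbered libraries from their group means had correlations of 0.246, 0.0196 and 0.154 for replicates 1, 2 and 3. For differently numbered libraries the correlations were -0.194 to 0.0606, a range that holds the value of replicate 2. Whether the numbers mark pairs was not tested. The sign changed in at least 1 alternative for 17 of the 32 members, namely ACAT2, HMGCS1, MVD (-0.077 to 0.278), FDPS, FDFT1, SQLE, MSMO1, HSD17B7, SC5D, DHCR7, SREBF1, INSIG1, STARD4 (7 of 15 alternatives), ACACA, SCD, FADS1 and ELOVL5. Of the genes given in full it turned for SREBF1 (-0.0058 with total counts alone, -0.0914 with the GC correction, -0.0911 with the replicate block and GC correction, -0.00066 to 0.098 with 1 library left out) and INSIG1 (-0.13 to 0.38 with 1 library left out). In the further lists it turned for LBR (-0.048 with total counts alone, -0.012 with upper-quartile scaling, -0.045 to 0.079 with 1 library left out) and MBTPS2 (0.080 with the GC correction, 0.075 with the replicate block and GC correction). The cause was not tested. The widest 95% intervals were those of STARD4, INSIG1 and CYP51A1.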
